A study of Mus musculus with 12 samples.

Results

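The 10 melanogenesis genes Pmel, Tyrp1, Dct, Tyr, Mlana, Mitf, Slc45a2, Oca2, Gpr143 and Slc24a5 were chosen by gene symbol from the 56748 genes of the deposited table, and all 10 were found. They were followed across 12 mouse retina libraries of poly-A RNA, each from a different animal. The groups were JR5558 at 4 weeks, C57BL/6J at 4 weeks, JR5558 at 8 weeks and C57BL/6J at 8 weeks, with 3 libraries each. C57BL/6J is the pigmented inbred strain used here as the wild type. JR5558 is a spontaneous mouse line known for early subretinal neovascular lesions, with reported mutations in Crb1 and Jak3; the labels name no genotype beyond the strain, no treatment and no sex.

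Melanin is made in melanosomes, organelles that begin as an amyloid scaffold of cleaved PMEL protein. Tyrosinase (Tyr) oxidises tyrosine, the rate-limiting step, and its relatives DCT and TYRP1 act on later intermediates of eumelanin synthesis. In the eye the pigment cells are the retinal pigment epithelium (RPE), a single layer behind the photoreceptors, the melanocytes of the choroid, and cells of the iris and ciliary body. The neural retina itself is not pigmented, so a dissected retina can hold these transcripts through pigment cells that stay attached to it. MITF is the transcription factor that drives most of the pathway, and it binds a promoter element called the M-box whose core letters are CATGTG.

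In JR5558 retinas the scaffold gene Pmel and the enzymes Tyrp1, Dct and Tyr were 2.18-fold to 2.69-fold higher than in C57BL/6J at 4 weeks, and Pmel and Dct were 2.00-fold and 2.16-fold higher at 8 weeks. Over both ages, Oca2 joined these 4 genes. Slc24a5 was the only one of the 10 with a negative difference, and Mitf itself differed by 0.25 ± 0.12 on the log2 scale (SE, adjusted p = 0.209, edgeR). Expression in whole tissue does not show which cells these transcripts came from, which was not tested. Nor can it separate more pigment cells from more RNA per pigment cell.

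Library totals were 18029611 to 23739886 counts. The 3 JR5558 libraries at 4 weeks had 0 to 5 Xist counts and 1323 to 1846 Ddx3y counts, whereas the other 9 had 7772 to 22988 Xist counts and 0 Ddx3y counts. Strain and sex thus cannot be told apart at 4 weeks, and the comparison over both ages takes in these libraries. Both 8-week groups were alike in Xist and Ddx3y. The 8 rod photoreceptor markers each had at least 11311 counts in every library, which matched the labelled tissue. C57BL/6J replicate 2 at 4 weeks stood apart, with 3.13 CPM (counts per 1e+06 of the TMM-scaled library size) of the RPE gene Rpe65 against 12.5 to 54.6 CPM elsewhere, and values without it are given where it changed a call of a melanogenesis gene or moved its 4-week value by over 1.5 times.

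The promoters of 3 genes of the tyrosinase family and of Oca2, which together make up 4 of the 5 genes called over both ages, are shown with that of Slc24a5, which was not called, because these 5 are the members whose windows hold the M-box core. They are from RefSeq on GRCm38.p6, 250 bases before to 50 after the gene start, written 5′ to 3′ along the gene. Capitals mark CATGTG, read as CACATG on the opposite strand, and TAATCC, the letters bound by OTX2 and CRX, read as GGATTA on the opposite strand.

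Tyrp1 promoter, chr4:80833963-80834262, plus strand: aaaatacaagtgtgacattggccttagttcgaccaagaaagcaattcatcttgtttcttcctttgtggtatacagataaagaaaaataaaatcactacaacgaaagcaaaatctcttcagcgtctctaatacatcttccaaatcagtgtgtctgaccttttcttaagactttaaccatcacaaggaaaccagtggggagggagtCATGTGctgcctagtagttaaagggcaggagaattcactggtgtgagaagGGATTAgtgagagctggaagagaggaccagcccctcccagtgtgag
Dct promoter, chr14:118052197-118052496, minus strand: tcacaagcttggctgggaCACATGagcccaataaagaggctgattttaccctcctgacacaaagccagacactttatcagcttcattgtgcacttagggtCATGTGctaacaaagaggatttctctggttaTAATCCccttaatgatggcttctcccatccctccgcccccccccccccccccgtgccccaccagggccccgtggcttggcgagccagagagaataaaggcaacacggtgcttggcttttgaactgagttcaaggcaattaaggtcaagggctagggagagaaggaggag
Tyr promoter, chr7:87493463-87493762, minus strand: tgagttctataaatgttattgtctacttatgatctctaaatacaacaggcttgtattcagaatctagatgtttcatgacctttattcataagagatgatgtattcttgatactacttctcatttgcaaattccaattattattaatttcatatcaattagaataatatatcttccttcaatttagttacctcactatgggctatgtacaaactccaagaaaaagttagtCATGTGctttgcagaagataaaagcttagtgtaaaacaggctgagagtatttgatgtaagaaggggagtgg
Oca2 promoter, chr7:56239509-56239808, plus strand: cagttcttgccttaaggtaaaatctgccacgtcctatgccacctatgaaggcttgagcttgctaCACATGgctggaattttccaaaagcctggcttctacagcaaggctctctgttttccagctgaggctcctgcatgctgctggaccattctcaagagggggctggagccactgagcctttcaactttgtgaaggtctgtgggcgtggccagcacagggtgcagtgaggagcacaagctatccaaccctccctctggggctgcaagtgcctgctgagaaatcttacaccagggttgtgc
Slc24a5 promoter, chr2:125067877-125068176, plus strand: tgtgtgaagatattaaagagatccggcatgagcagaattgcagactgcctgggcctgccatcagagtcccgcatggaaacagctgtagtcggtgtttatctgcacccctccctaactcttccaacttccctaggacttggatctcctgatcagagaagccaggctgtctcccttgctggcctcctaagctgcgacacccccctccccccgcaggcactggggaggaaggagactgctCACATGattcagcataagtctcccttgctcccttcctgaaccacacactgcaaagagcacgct

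The CATGTG letters began 46 bases before the gene start in Tyrp1, 21 bases before it in Tyr, 232 and 150 bases before it in Dct, 186 bases before it in Oca2 and 13 bases before it in Slc24a5, the member with a negative difference. The table held windows for 6 of the 10 genes, 8 windows in all because Mitf has 3 starts there; Pmel, Mlana, Slc45a2 and Gpr143 had no entry. CATGTG was found in 5 of these 8 windows, against 14.2% of all 32851 windows. The 3 Mitf windows held none. TAATCC was found in 3 of the 8 windows, in Tyrp1, Dct and 1 start of Mitf, against 7.06% of all windows, and the palindromic E-box CACGTG in 0 of 8 against 7.15%. Both strands were searched, and none of the 3 motifs overlapped another. In Tyr, Tyrp1 and the nearer site of Dct the core sat in the same 10 letters, GTCATGTGCT, a run picked after the sequences were seen, which occurs on either strand in 61 of the 32851 windows, or 0.186%. A match of letters is not a measured binding site.

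Levels of different genes are compared on the authors' FPKM, which divides by transcript length. Averaged over the 12 libraries, Dct was highest at 7.40 FPKM, followed by Pmel at 6.08, Tyrp1 at 4.61, Slc24a5 at 2.43, Mlana at 1.84, Mitf at 1.35, Tyr at 0.636, Oca2 at 0.557, Gpr143 at 0.304 and Slc45a2 at 0.225 FPKM. Of the 9 neighbouring pairs in this order, only Mitf over Tyr held in all 12 libraries without overlap in any of the 4 groups. Dct exceeded Pmel in 9 of 12 libraries and Pmel exceeded Tyrp1 in 8, so these 3 did not keep a fixed order, and Mlana over Mitf and Tyr over Oca2 held in 7 of 12 each. Tyr, the enzyme that starts the pathway, was thus low on the FPKM scale. Its summed counts over the 12 libraries were 1142, above the 488 of Mlana, which ranked higher in FPKM. Slc45a2 and Gpr143 were so low that their summed counts were 167 and 150.

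**Figure D1:**
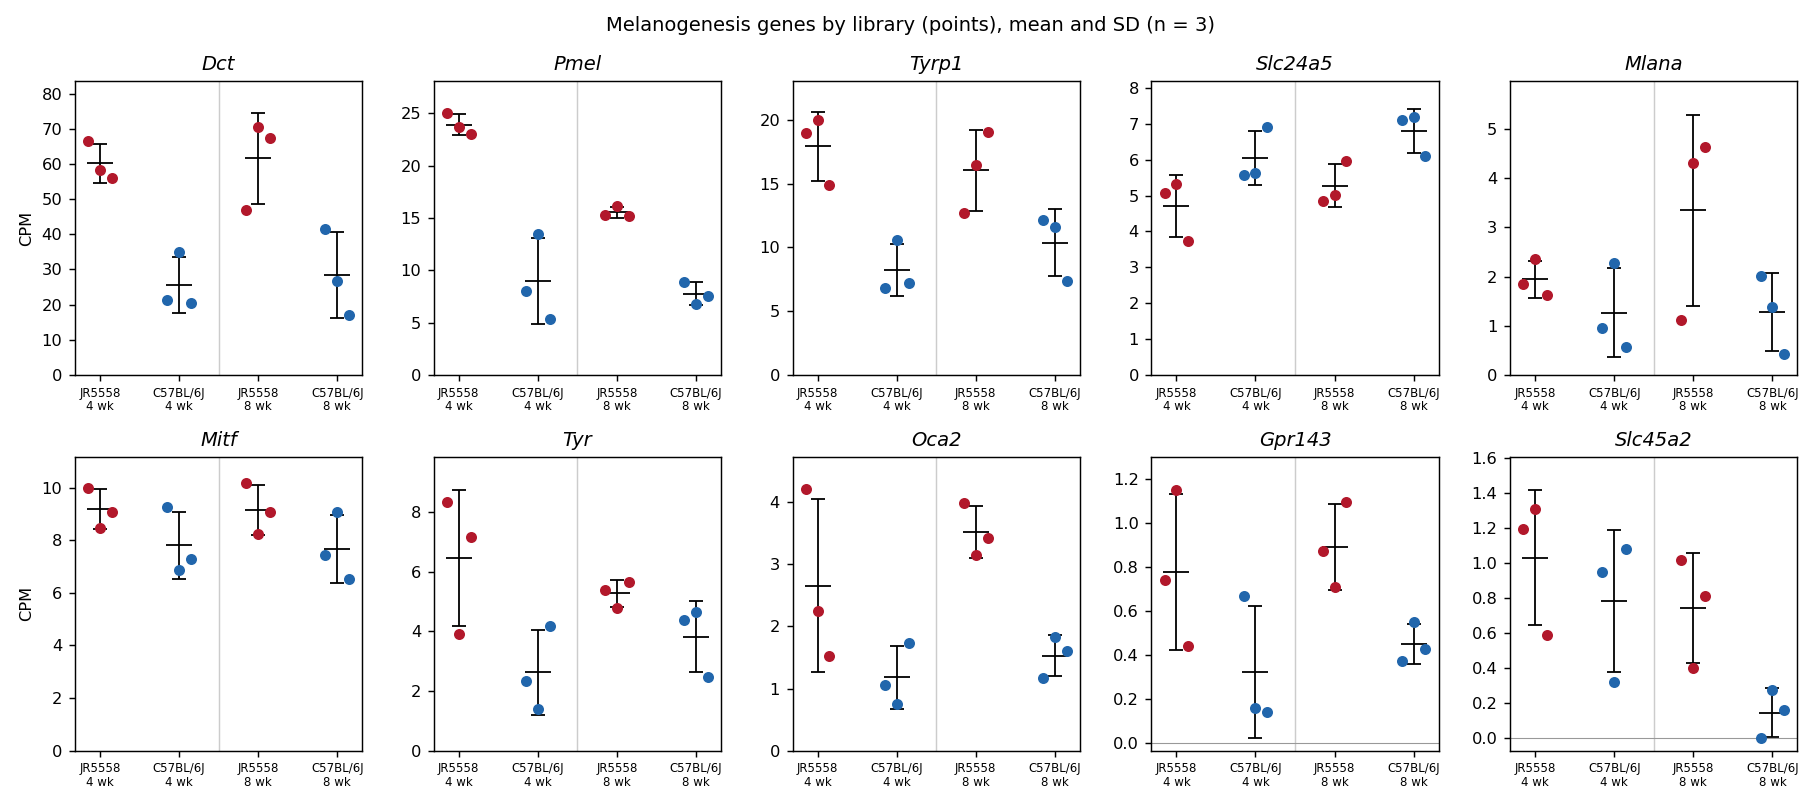
TMM-scaled CPM of the 10 melanogenesis genes in each of the 12 libraries, with 1 panel per gene and its own axis from 0. Points are libraries (red, JR5558; blue, C57BL/6J), and bars are mean and SD of 3 libraries. Pmel lies at 23.0 to 25.0 CPM in JR5558 at 4 weeks and at 5.36 to 13.4 CPM in C57BL/6J, and the Slc24a5 points of the strains overlap over the 12 libraries.

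At 4 weeks, 4 of the 10 genes passed the threshold, all higher in JR5558, against 3.27% of the 18334 tested genes called higher; the threshold is an adjusted p under 0.05 by edgeR's quasi-likelihood test with Benjamini-Hochberg adjustment over all tested genes. None was called lower, against 2.9% of tested genes. The median log2 fold change of the 10 genes was 1.15, and that of all tested genes was -0.00. At 8 weeks 2 genes were called higher, against 2.54% of tested genes, and 0 lower, against 2.63%, with a median of 0.99. Over both ages, weighted equally, 5 genes were called higher, against 5.47%, and 0 lower, against 5.72%, with a median of 1.07. All 10 genes passed the filter on low counts, but Gpr143 and Slc45a2 reached its level of 0.491 CPM in only 7 libraries, 5 of JR5558 and 2 of C57BL/6J, so their inclusion depended on JR5558.

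Pmel encodes the protein of the fibrils on which melanin is laid down. It had 25.0, 23.7 and 23.0 CPM in the JR5558 libraries at 4 weeks, against 8.02, 13.4 and 5.36 CPM in C57BL/6J. At 8 weeks it had 15.3, 16.1 and 15.2 CPM in JR5558, against 8.92, 6.75 and 7.54 CPM in C57BL/6J. The lowest of the 6 JR5558 values exceeded the highest of the 6 C57BL/6J values, as for 3 of the 10 genes (Pmel, Dct and Tyrp1) and 2.84% of tested genes. The coefficient of variation of the JR5558 replicates was 4.18% at 4 weeks and 3.43% at 8 weeks. Counting error alone would give 4.43% and 5.49%. The log2 fold change was 1.42 ± 0.21 at 4 weeks (SE, adjusted p = 0.000229, edgeR), 1.00 ± 0.22 at 8 weeks (adjusted p = 0.00763) and 1.21 ± 0.15 over both ages (adjusted p = 1.53e-05). With C57BL/6J replicate 2 at 8 weeks left out, the 8-week value was 0.92 with an adjusted p of 0.0526, past the threshold no longer. In the deposited coordinates Pmel overlaps Cdk2 by 837 bases and Dgka by 105 bases, both on the other strand, and whether the libraries kept strand is not stated; neither neighbour was called at either age, and they had 51 to 97 and 118 to 195 counts.

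Dct encodes dopachrome tautomerase, which turns dopachrome into a carboxylated indole on the way to eumelanin, and it had the most counts of the 10. It had 66.5, 58.3 and 56.0 CPM in JR5558 at 4 weeks, against 21.4, 34.9 and 20.5 CPM in C57BL/6J. The 8-week libraries held 46.8, 70.6 and 67.4 CPM in JR5558, against 41.5, 26.6 and 17.1 CPM in C57BL/6J. As with Pmel, no JR5558 value of either age reached down to a C57BL/6J value. On the log2 scale JR5558 differed by 1.24 ± 0.24 at 4 weeks (SE, adjusted p = 0.00294, edgeR), 1.11 ± 0.24 at 8 weeks (adjusted p = 0.00721) and 1.18 ± 0.17 over both ages (adjusted p = 8.09e-05). It was called in all 12 fits that left out 1 library, at each age and over both.

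Tyrp1, whose protein stabilises tyrosinase and acts late in eumelanin synthesis, had 18.9, 20.0 and 14.9 CPM in JR5558 at 4 weeks, against 6.85, 10.6 and 7.24 CPM in C57BL/6J. The older retinas had 12.7, 16.5 and 19.0 CPM in JR5558, against 12.1, 11.6 and 7.38 CPM in C57BL/6J. The strains did not overlap at either age, although the lowest JR5558 library and the highest C57BL/6J library at 8 weeks were close. The log2 fold change was 1.12 ± 0.21 at 4 weeks (SE, adjusted p = 0.00168, edgeR), 0.63 ± 0.20 at 8 weeks (adjusted p = 0.0872) and 0.88 ± 0.14 over both ages (adjusted p = 0.00033). Without JR5558 replicate 1 at 8 weeks, the 8-week difference was 0.78 with an adjusted p of 0.0476. It was 0.44 (adjusted p = 0.295) without C57BL/6J replicate 3 and 0.49 (adjusted p = 0.362) without JR5558 replicate 3 of that age.

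Tyr encodes tyrosinase itself. It had 8.33, 3.92 and 7.17 CPM in JR5558 at 4 weeks, against 2.34, 1.38 and 4.19 CPM in C57BL/6J. Later, at 8 weeks, there were 5.39, 4.79 and 5.67 CPM in JR5558, against 4.39, 4.65 and 2.46 CPM in C57BL/6J. The strains overlapped at 4 weeks, through JR5558 replicate 2 and C57BL/6J replicate 3, and did not at 8 weeks. On the log2 scale JR5558 differed by 1.29 ± 0.34 at 4 weeks (SE, adjusted p = 0.0265, edgeR), 0.46 ± 0.33 at 8 weeks (adjusted p = 0.53) and 0.87 ± 0.24 over both ages (adjusted p = 0.0203). At 4 weeks the call was lost in 4 of the 12 fits that left out 1 library, each missing 1 library of that age (C57BL/6J 1, C57BL/6J 2, JR5558 1 or JR5558 3), with adjusted p-values up to 0.127. Without C57BL/6J replicate 3 at 8 weeks, the 8-week value was 0.23 (adjusted p = 0.812). Over both ages the call was lost without C57BL/6J replicate 3 at 8 weeks, JR5558 replicate 1 at 4 weeks or JR5558 replicate 3 at 8 weeks, with adjusted p-values up to 0.0574.

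Among the melanosome membrane proteins, Oca2, an anion channel that raises melanosome pH, was called over both ages only. It had 4.21, 2.25 and 1.52 CPM in JR5558 at 4 weeks, against 1.06, 0.744 and 1.74 CPM in C57BL/6J. At 8 weeks it had 3.98, 3.15 and 3.43 CPM in JR5558, against 1.17, 1.83 and 1.60 CPM in C57BL/6J. The strains overlapped at 4 weeks and lay clearly apart at 8 weeks. The log2 fold change was 1.17 ± 0.38 at 4 weeks (SE, adjusted p = 0.0836, edgeR), 1.20 ± 0.37 at 8 weeks (adjusted p = 0.0704) and 1.18 ± 0.27 over both ages (adjusted p = 0.00554), the last called in all 12 fits that left out 1 library. The 4-week value was 0.65 (adjusted p = 0.385) without JR5558 replicate 1 of that age, and passed the threshold without C57BL/6J replicate 3 (1.57, adjusted p = 0.0337) or JR5558 replicate 3 (1.44, adjusted p = 0.0242). The 8-week value passed it in 3 of the 12 fits, each without a 4-week library, at 1.20 to 1.21.

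Slc45a2, a transporter of the melanosome pathway, had 29, 25 and 12 counts in JR5558 at 4 weeks, against 17, 6 and 23 counts in C57BL/6J. The 8-week libraries held 21, 9 and 17 counts in JR5558, against 0, 5 and 3 counts in C57BL/6J, where the count of 0 allows up to 0.140 CPM (3 counts, counting error only). The strains overlapped at 4 weeks and not at 8 weeks. The fitted log2 fold change was 0.39 ± 0.61 at 4 weeks (SE, adjusted p = 0.793, edgeR), 2.35 ± 0.77 at 8 weeks (adjusted p = 0.093) and 1.37 ± 0.49 over both ages (adjusted p = 0.084), all short of the threshold. Single libraries moved it: with 1 library left out, the 4-week value ran from 0.01, without C57BL/6J replicate 2, to 0.71, without C57BL/6J replicate 3. The 8-week value ran from 1.74, without C57BL/6J replicate 1, to 3.19, without C57BL/6J replicate 2.

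Gpr143 encodes a melanosomal G protein-coupled receptor and lies on the X chromosome, which bears on the 4-week comparison because the JR5558 libraries of that age differed from the rest in Xist and Ddx3y. It had 18, 22 and 9 counts in JR5558 at 4 weeks, against 12, 3 and 3 counts in C57BL/6J. The older retinas had 18, 16 and 23 counts in JR5558, against 8, 10 and 8 counts in C57BL/6J. The strains overlapped at 4 weeks and were apart at 8 weeks, at counts too low for a close estimate. On the log2 scale JR5558 differed by 1.28 ± 0.61 at 4 weeks (SE, adjusted p = 0.266, edgeR), 0.98 ± 0.58 at 8 weeks (adjusted p = 0.421) and 1.13 ± 0.42 over both ages (adjusted p = 0.0989). Without C57BL/6J replicate 1 at 4 weeks, the 4-week value was 2.32 (adjusted p = 0.0707) and the value over both ages passed the threshold at 1.65 (adjusted p = 0.0228). Because Gpr143 reached the filter level in 5 JR5558 and 2 C57BL/6J libraries, its being tested depended on the strain in which it was higher. Passing the threshold in that fit is therefore no separate evidence of a strain difference. The 4-week value was 0.90 (adjusted p = 0.537) without JR5558 replicate 2 of that age.

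Mlana, a small melanosomal protein that binds PMEL, had 1.86, 2.35 and 1.62 CPM in JR5558 at 4 weeks, against 0.947, 2.28 and 0.564 CPM in C57BL/6J. Later, at 8 weeks, there were 1.12, 4.30 and 4.62 CPM in JR5558, against 2.01, 1.38 and 0.428 CPM in C57BL/6J. It was the gene with the widest spread between JR5558 replicates at 8 weeks, a coefficient of variation of 57.9%, and the strains overlapped at both ages. The log2 fold change was 0.62 ± 0.56 at 4 weeks (SE, adjusted p = 0.609, edgeR), 1.38 ± 0.54 at 8 weeks (adjusted p = 0.173) and 1.00 ± 0.39 over both ages (adjusted p = 0.111). The value over both ages passed the threshold at 1.37 (adjusted p = 0.0369) without C57BL/6J replicate 2 at 4 weeks, and at 1.21 (adjusted p = 0.0326) without JR5558 replicate 1 at 8 weeks. The 4-week value was 1.35 (adjusted p = 0.272) without C57BL/6J replicate 2 and 0.26 (adjusted p = 0.868) without C57BL/6J replicate 3 of that age.

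Slc24a5, a potassium-dependent sodium-calcium exchanger of the pigment pathway, was the member with a negative difference. It had 5.07, 5.33 and 3.73 CPM in JR5558 at 4 weeks, against 5.57, 5.63 and 6.91 CPM in C57BL/6J. At 8 weeks it had 4.86, 5.01 and 5.96 CPM in JR5558, against 7.10, 7.19 and 6.09 CPM in C57BL/6J. The strains did not overlap within either age, as was so in this direction for 9.55% of tested genes at 4 weeks and 15.3% at 8 weeks, but the margin was small. On the log2 scale JR5558 differed by -0.36 ± 0.19 at 4 weeks (SE, adjusted p = 0.317, edgeR), -0.37 ± 0.19 at 8 weeks (adjusted p = 0.326) and -0.36 ± 0.13 over both ages (adjusted p = 0.0897), so it did not pass the threshold. Without JR5558 replicate 3 at 4 weeks, the 4-week value was -0.22 (adjusted p = 0.634). In the deposited coordinates it overlaps Myef2 by 4050 bases on the other strand, a gene with 1269 to 2009 counts and a log2 fold change of 0.07 at 4 weeks and -0.02 at 8 weeks; how many of the Slc24a5 counts belong to it was not tested.

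Mitf, the regulator, had 9.98, 8.47 and 9.08 CPM in JR5558 at 4 weeks, against 9.25, 6.85 and 7.29 CPM in C57BL/6J. The 8-week libraries held 10.2, 8.25 and 9.05 CPM in JR5558, against 7.42, 9.07 and 6.52 CPM in C57BL/6J. The strains overlapped at both ages. The log2 fold change was 0.24 ± 0.17 at 4 weeks (SE, adjusted p = 0.489, edgeR) and 0.25 ± 0.17 at 8 weeks (adjusted p = 0.48), with a 95% interval over both ages of -0.00 to 0.49, beside 0.90 to 1.53 for Pmel, 0.82 to 1.53 for Dct, 0.57 to 1.18 for Tyrp1, 0.63 to 1.74 for Oca2 and 0.38 to 1.37 for Tyr. Of these 5 called genes, the interval of Tyr overlaps that of Mitf, and the differences between genes were not tested. Leaving out 1 library moved Mitf to between 0.14 and 0.37 at 4 weeks, both without a C57BL/6J library (replicate 2 and replicate 1), and to between 0.16 and 0.39 at 8 weeks (C57BL/6J replicate 3 and replicate 2). Gene-level counts sum all Mitf isoforms, which start at different promoters.

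**Figure D2:**
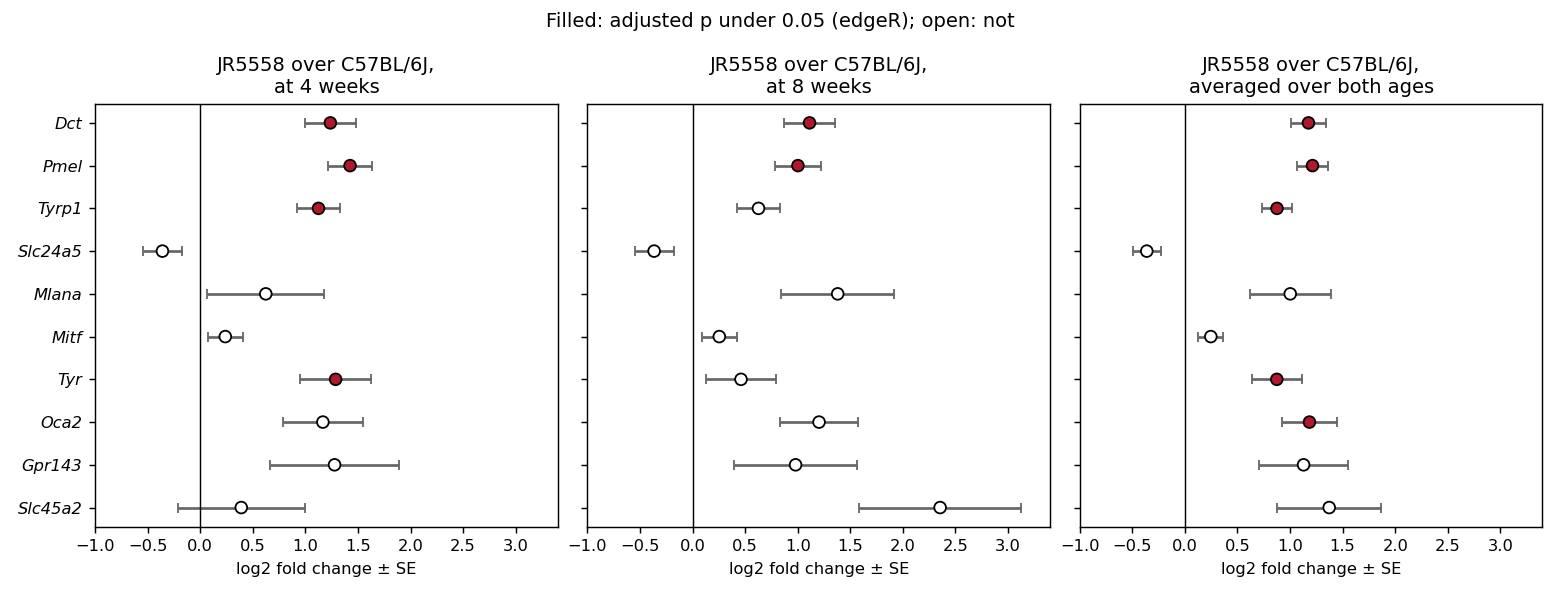
Log2 fold change of JR5558 over C57BL/6J (x axis) with its standard error for the 10 melanogenesis genes (rows, in the order of their FPKM level) at 4 weeks, at 8 weeks and averaged over both ages. Filled points had an adjusted p under 0.05 by edgeR; 4, 2 and 5 genes are filled in the 3 panels, and only Slc24a5 lies below 0.

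Between the strains, groups did not overlap for 3 genes higher in JR5558 at 4 weeks, namely Pmel, Tyrp1 and Dct, against 10.1% of tested genes. At 8 weeks 7 genes were apart in this direction, against 14.9% of tested genes, with Mlana and Mitf overlapping. So more genes were apart at 8 weeks while fewer passed the test. The 7 include Slc45a2 and Gpr143, which reached the filter level in 5 JR5558 and 2 C57BL/6J libraries. Their being tested thus depended on the strain in which they were higher. In the authors' deposited table, whose test is not stated, 4 members were higher at each age. The share of all genes called higher there was not computed, so this count has no background beside it. At 8 weeks the members were Pmel, Dct, Tyrp1 (adjusted p = 0.0125 in the authors' deposited table) and Oca2 (adjusted p = 0.00439 in the authors' deposited table).

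Whether the strain difference itself changed with age was tested directly, and none of the 10 genes was called, against 0.0927% of tested genes; 0 of the 10 had an unadjusted p under 0.05, and DESeq2 called 0. The largest contrasts were for Slc45a2, 1.96 ± 0.99 on the log2 scale (SE, adjusted p = 0.713, edgeR), and Tyr, -0.83 ± 0.47 (adjusted p = 0.753). Tyr being called at 4 weeks and not at 8 weeks is therefore not shown to be a difference between the ages. Because only the JR5558 libraries at 4 weeks differed in Xist and Ddx3y, age and sex cannot be told apart in this contrast.

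From 4 to 8 weeks within JR5558, none of the 10 genes was called, against 1.51% of tested genes, with 1 at an unadjusted p under 0.05 and 0 by DESeq2. That gene was Pmel, at 15.2 to 16.1 CPM at 8 weeks and 23.0 to 25.0 CPM at 4 weeks. The groups were apart, as for 12.2% of tested genes in that direction, and the log2 fold change was -0.62 ± 0.20 (SE, adjusted p = 0.125, edgeR). The authors' deposited table gives -0.62 with an adjusted p of 0.000172. Pmel was called here without C57BL/6J replicate 2 or 3 at 4 weeks, libraries of neither group compared. Such libraries enter through the filter, the scaling, the shared estimate of spread and the adjustment over all tested genes. Those 2 fits called 299 and 987 of all genes in this comparison, against 277 with every library in. The JR5558 libraries of the 2 ages also differed in Xist and Ddx3y, so age and sex cannot be told apart in this comparison. Dct, at 0.03 ± 0.23, and Mitf, at -0.01 ± 0.16, had estimates near 0 over the same interval.

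From 4 to 8 weeks within C57BL/6J, none of the 10 genes was called either, against 0.431% of tested genes, with 1 at an unadjusted p under 0.05 and 0 by DESeq2. That gene was Slc45a2, at 0, 5 and 3 counts at 8 weeks and 17, 6 and 23 counts at 4 weeks, apart by a single count as 10% of tested genes were apart in that direction, with a fitted log2 fold change of -2.44 ± 0.77 (SE, adjusted p = 0.162, edgeR).

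Markers of the RPE that make no pigment moved with the strain. The list held 14 genes, among them Rpe65, the isomerase of the visual cycle, Slc16a8, a lactate exporter, and the vitamin A receptor Stra6. Of the 14, 10 were called higher in JR5558 at 4 weeks, 2 at 8 weeks and 11 over both ages, with 0 lower and medians of 1.31, 1.03 and 1.17 on the log2 scale. In these comparisons 3.27%, 2.54% and 5.47% of all tested genes were called higher. The list summed to 386 to 578 CPM in JR5558 against 129 to 315 CPM in C57BL/6J at 4 weeks, and to 461 to 655 CPM against 234 to 349 CPM at 8 weeks. The 10 melanogenesis genes summed to 118 to 142 CPM in JR5558 against 55.0 to 76.3 CPM in C57BL/6J at 4 weeks, and to 102 to 132 CPM against 49.7 to 85.0 CPM at 8 weeks. Both sums were apart between the strains at each age. None of the 14 markers was at 0 in any library, and Best1, a chloride channel of the RPE, differed by 0.01 ± 0.38 over both ages (SE, adjusted p = 0.993, edgeR) at 9 to 33 counts.

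The first of these markers by adjusted p over both ages were Krt18, a keratin, Slc16a8 and Stra6. Krt18 differed by 0.48 ± 0.06 on the log2 scale (SE, adjusted p = 4.03e-05, edgeR). Slc16a8 differed by 1.25 ± 0.18 (adjusted p = 1e-04) and Stra6 by 0.78 ± 0.15 (adjusted p = 0.00132). Rpe65 had 49.7, 28.0 and 51.0 CPM in JR5558 at 4 weeks, against 16.7, 3.13 and 24.0 CPM in C57BL/6J. The older retinas had 47.2, 34.6 and 54.6 CPM in JR5558, against 22.2, 18.4 and 12.5 CPM in C57BL/6J. Rpe65 was apart between the strains at both ages and differed by 1.45 ± 0.28 over them (SE, adjusted p = 0.00157, edgeR). C57BL/6J replicate 2 at 4 weeks, the lowest in Rpe65, was also lowest of its group in Slc16a8 and Stra6. Krt18 was not low there, at 54.8, 51.0 and 46.2 CPM in replicates 1, 2 and 3 of that group.

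The melanogenesis genes did not all follow these markers from library to library. An RPE score, the mean log2 CPM of the 14 markers, was 3.64 to 4.16 in JR5558 and 2.08 to 3.41 in C57BL/6J at 4 weeks, and 3.84 to 4.32 in JR5558 and 3.04 to 3.50 in C57BL/6J at 8 weeks. Of the 12 pairs of libraries within groups, Tyr was ordered as the score in 11, Mitf in 9, Oca2 in 8 and the other genes in 4 to 7, with Pmel at 4. The clearest case was C57BL/6J replicate 2 at 4 weeks, which had the lowest score of all 12 libraries. In its group it was lowest in Tyr, Oca2, Slc45a2 and Mitf, yet highest in Pmel, Tyrp1, Dct and Mlana. Without this library 3 of the 10 genes were called at 4 weeks, 2 at 8 weeks and 6 over both ages, and the 4-week difference of Pmel was 1.83 ± 0.17 on the log2 scale (SE, adjusted p = 1.62e-06, edgeR). The same fit called 814 of all genes at 4 weeks, 961 at 8 weeks and 1729 over both ages. With all 12 libraries these totals were 1130, 949 and 2050.

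**Figure D3:**
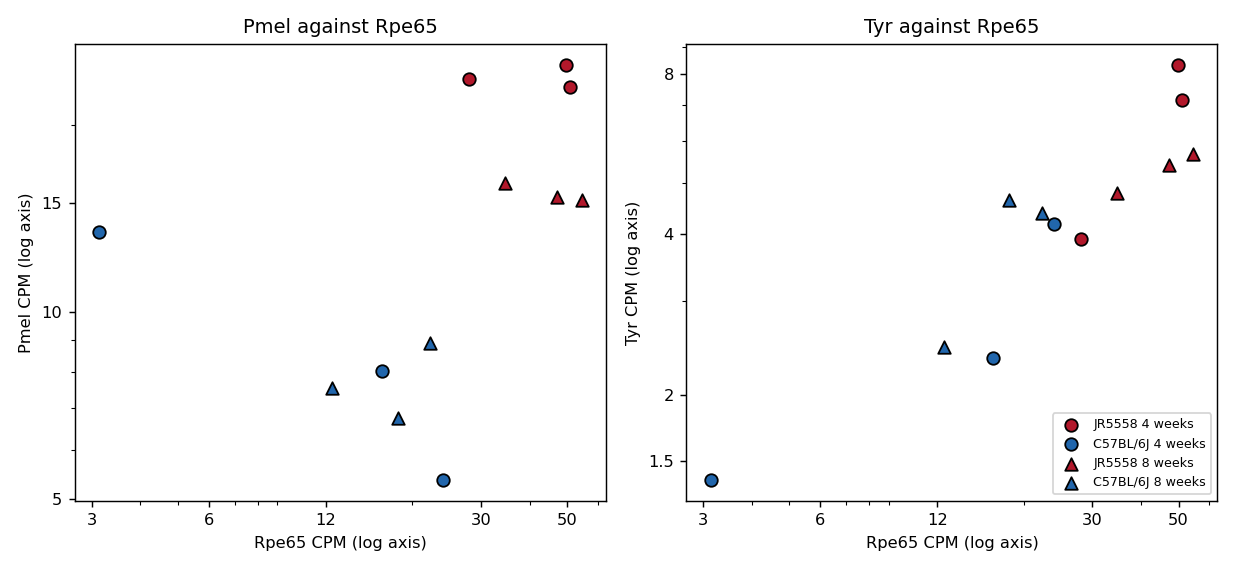
Pmel (left) and Tyr (right) CPM against Rpe65 CPM in the 12 libraries, log axes. Red, JR5558; blue, C57BL/6J; circles, 4 weeks; triangles, 8 weeks. Tyr is lowest, at 1.38 CPM, in the library with the least Rpe65, whereas Pmel in that library is at 13.4 CPM, the highest of the C57BL/6J libraries.

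When the RPE score was added to the fit as a covariate, some of the genes were still called and others were not. Over both ages Pmel differed by 1.83 ± 0.22 on the log2 scale (SE, adjusted p = 3.91e-05, edgeR), Dct by 1.38 ± 0.30 (adjusted p = 0.0146) and Tyrp1 by 1.09 ± 0.25 (adjusted p = 0.0232). Tyr was at -0.26 ± 0.29 (adjusted p = 0.716) and Oca2 at 0.59 ± 0.46 (adjusted p = 0.585), neither past the threshold. So 3 of the 10 genes were called over both ages with the covariate, 2 at 4 weeks (Pmel and Tyrp1) and 2 at 8 weeks (Pmel and Dct). At 4 weeks Dct was at 1.49 ± 0.39 (adjusted p = 0.062) and Tyr at 0.01 ± 0.40 (adjusted p = 0.997). The strains share no range of the score, at 3.64 to 4.32 in JR5558 and 2.08 to 3.50 in C57BL/6J, so the covariate fit extrapolates. Strain and score can be separated only through the spread within groups. That spread was widest in C57BL/6J at 4 weeks, at 2.08 to 3.41. Its replicate 2 was lowest in score but highest of its group in Pmel, Tyrp1, Dct and Mlana. The covariate fit was not run without this library, so how far its estimates rest on it was not tested. Among all tested genes the covariate fit called 531 over both ages, against 2050 without the covariate.

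**Figure D4:**
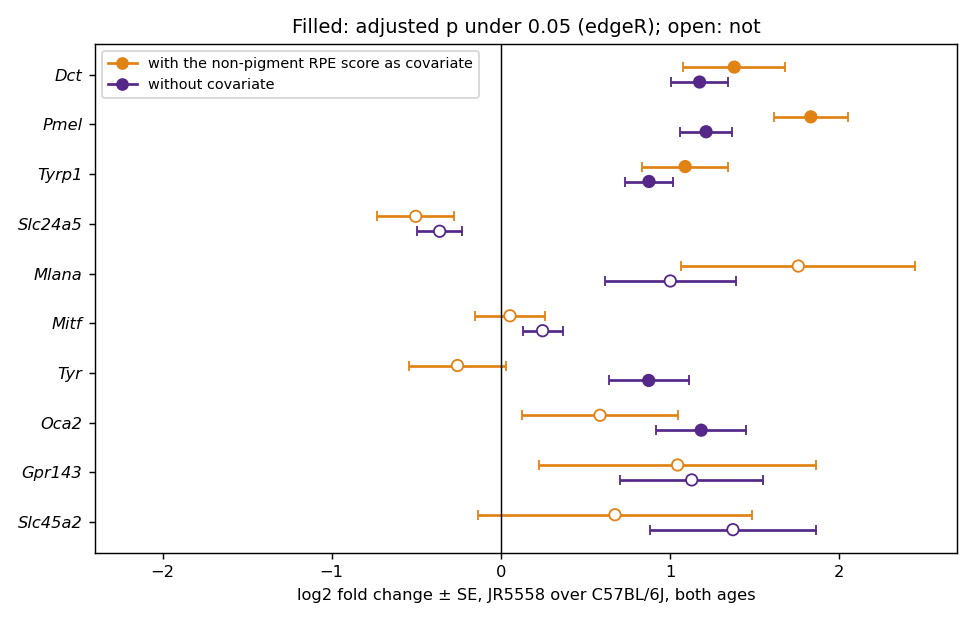
Log2 fold change of JR5558 over C57BL/6J averaged over both ages, with its standard error, for the 10 melanogenesis genes, fitted with the non-pigment RPE score as a covariate (orange) and without it (purple). Filled points had an adjusted p under 0.05 by edgeR. Pmel, Dct and Tyrp1 are filled in both fits, whereas Tyr moves to -0.26 and Oca2 to 0.59 with the covariate.

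**Figure D5:**
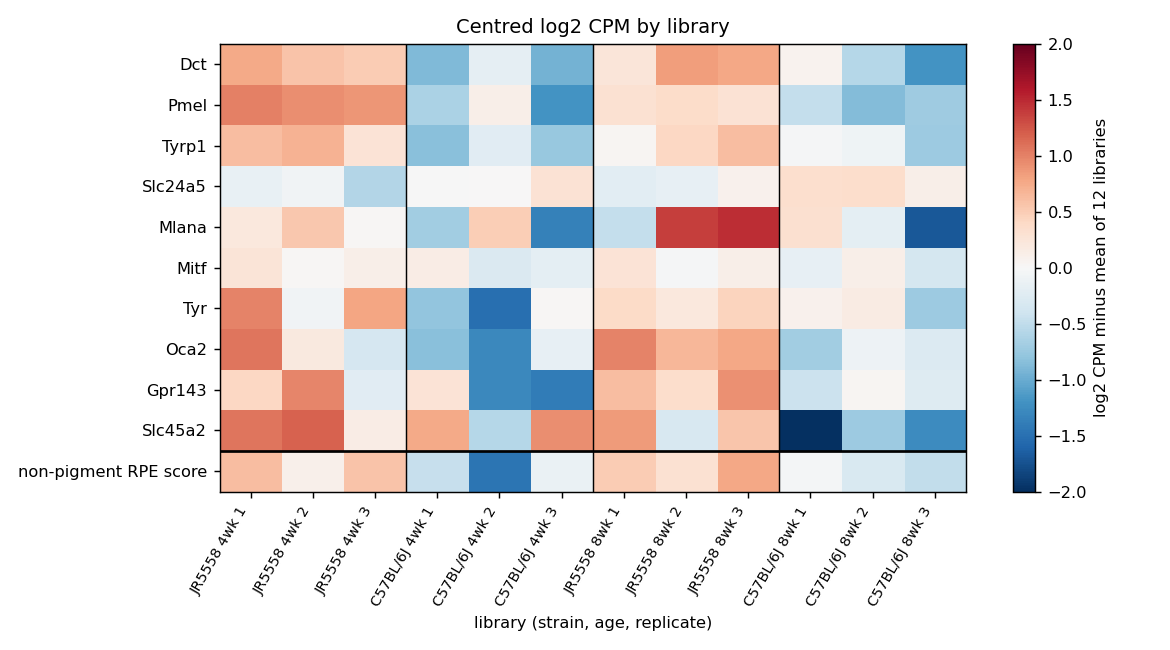
Log2 CPM of each melanogenesis gene in each library minus its mean over the 12 libraries (colour scale, from -2 to 2), with the non-pigment RPE score in the bottom row. Rows are in the order of FPKM level, and black lines divide the 4 groups. C57BL/6J replicate 2 at 4 weeks is the darkest cell of the score row, while its Pmel and Mlana cells lie above 0.

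As shown in the map of centred values, single libraries stood low or high in many of the genes. JR5558 replicate 3 at 4 weeks was lowest of its group in 8 of the 10 genes and highest in 0, and C57BL/6J replicate 3 at 8 weeks was lowest in 6 and highest in 0. Against the mean of the 10 centred profiles, Tyrp1 was nearest, with a root mean square difference of 0.23 on the log2 scale over the 12 libraries, and Slc45a2 farthest at 0.94. Outside the 10, the named genes nearest to this mean profile were Spidr at 0.179, Ezr at 0.181, Spx at 0.190, Crym at 0.191 and Prtg at 0.192. This ranking is a description without a test, and all 12 libraries enter it.

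Other cells that could carry pigment transcripts were checked through their markers. Of the neural crest melanocyte and Schwann lineage list, Pax3 was at 0 in all 12 libraries, Foxd3 was at 0 in 11, and Sox10 had 0 to 62 counts. The 10 genes of that list summed to 39.9 to 42.3 CPM in JR5558 against 29.0 to 33.1 CPM in C57BL/6J at 4 weeks, and to 33.5 to 35.1 CPM against 26.9 to 29.5 CPM at 8 weeks. Of its 7 tested genes, 2 were called higher at 4 weeks, 0 at 8 weeks and 2 over both ages. Among all tested genes, 3.27%, 2.54% and 5.47% were called higher in these comparisons. The 2 genes were Kit and Mc1r, which are receptors also used outside melanocytes. Over both ages 6 of the 7 differences were positive, with a median of 0.48 on the log2 scale. Of the 7 tested iris and ciliary epithelium markers, 0 were called at 4 weeks, 1 was called lower at 8 weeks and 0 over both ages. All 7 differences were positive at 4 weeks, with a median of 0.34 on the log2 scale. These markers summed to 300 to 309 CPM in JR5558 against 267 to 286 CPM in C57BL/6J at 4 weeks. At 8 weeks 6 differences were positive, yet the sums were 263 to 280 CPM against 298 to 303 CPM. Of the 6 tested fibroblast markers of choroid and sclera, 0 were called in any strain comparison, and Col1a1 had 17 to 79 counts. The 7 tested lens markers had 0 calls too, with Cryaa at 0 to 62.7 CPM. The rod list had 0 of 8 called at 4 weeks, 2 lower at 8 weeks and 3 lower over both ages. Called lower among all tested genes were 2.63% at 8 weeks and 5.72% over both ages. The rod sums were 52868 to 59323 CPM in JR5558 against 53845 to 58186 CPM in C57BL/6J at 4 weeks, and 54801 to 56640 CPM against 62248 to 64748 CPM at 8 weeks. The part of these cells in the melanogenesis differences was not tested.

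The general machinery of melanosome biogenesis and transport did not move as a block. Of its 32 genes, 3 were called higher at 4 weeks, 3 at 8 weeks and 6 over both ages, with 0 lower. The shares of all tested genes called higher were 3.27%, 2.54% and 5.47%. The medians of the 32 genes were 0.06, -0.02 and 0.04 on the log2 scale. The leading gene of the 32 was Bace2, whose protease cleaves PMEL into its fibril-forming fragment. It had 5.61, 5.18 and 4.86 CPM in JR5558 at 4 weeks, against 1.73, 1.54 and 2.26 CPM in C57BL/6J, and differed by 1.49 ± 0.22 (SE, adjusted p = 0.000226, edgeR). Later, at 8 weeks, there were 4.71, 4.21 and 5.15 CPM in JR5558, against 2.61, 3.04 and 2.46 CPM in C57BL/6J, a difference of 0.79 ± 0.22 (adjusted p = 0.0371). Bace2 was thus apart between the strains at both ages, like its substrate Pmel.

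Gpnmb, a relative of Pmel that is also abundant in phagocytes, differed by 0.98 ± 0.23 at 4 weeks (SE, adjusted p = 0.0121, edgeR) and by 0.60 ± 0.22 at 8 weeks (adjusted p = 0.148), and was called over both ages at 0.79 ± 0.16 (adjusted p = 0.00234). Bloc1s6, a subunit of the BLOC-1 complex of cargo sorting, differed by 0.39 ± 0.10 at 4 weeks (adjusted p = 0.0238) and 0.46 ± 0.10 at 8 weeks (adjusted p = 0.00844).

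Of the signals and regulators upstream of the pigment genes, 19 of 21 in the table were tested. At 4 weeks 4 were called higher, at 8 weeks 0, and over both ages 3 were higher and 1 lower. All tested genes were called higher in 3.27% at 4 weeks and 2.54% at 8 weeks. Over both ages 5.47% were called higher and 5.72% lower. Mc1r, the melanocortin receptor that signals to Mitf in melanocytes, had 9.37, 8.00 and 8.64 CPM in JR5558 at 4 weeks, against 4.46, 4.73 and 4.42 CPM in C57BL/6J, and differed by 0.94 ± 0.19 (SE, adjusted p = 0.00512, edgeR). At 8 weeks it differed by 0.03 ± 0.20 (adjusted p = 0.962), with 5.73, 4.39 and 4.81 CPM in JR5558 against 6.26, 3.82 and 4.44 CPM in C57BL/6J. The Mc1r values were thus apart at 4 weeks and overlapped at 8 weeks, and the 4-week JR5558 libraries were those that differed in Xist and Ddx3y. Kit, the receptor for stem cell factor, differed by 0.71 ± 0.16 at 4 weeks (adjusted p = 0.00919) and 0.34 ± 0.16 at 8 weeks (adjusted p = 0.276).

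Creb1, a mediator of cyclic AMP signalling, differed by -0.20 ± 0.06 over both ages (SE, adjusted p = 0.0259, edgeR). Otx2, a partner of MITF in the RPE that is also abundant in retinal neurons, had 202 to 234 CPM in every library and was not called at either age. Tfec, another relative of Mitf known from the RPE, had at most 2 counts in any library.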

How the data were processed

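Whole mouse retinas gave poly-A RNA libraries; the submitters' processing notes name fastp, HISAT2 2.0.5, featureCounts 1.5.0-p3 and the mm10 genome. Per the file headers, the authors' deposited table holds raw counts and FPKM per library. For each comparison the authors also deposited a log2 fold change with its p-value, raw and adjusted; the test behind them is not given in the sources used here. The 8 deposited columns of group means were not used. No member had the same start and end as in GENCODE M21, so the build of the deposited positions is not settled, and they serve here only for chromosomes and overlaps.

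R 4.3.3 was used with edgeR 4.0.16, DESeq2 1.42.0, limma 3.58.1 and the data.table package (1.17.8). edgeR's filterByExpr (minimum count 10 and minimum total 15, by group) kept 18334 genes for testing. After TMM scaling, edgeR's quasi-likelihood model with a mean for each group took in all 12 libraries, and its 2-sided p-values were adjusted by Benjamini-Hochberg over the tested genes. CPM values are TMM-scaled, and the RPE score uses log2 CPM with a prior count of 2. Depth was 18029611 to 23739886 counts per library; floors cover counting error only. Per the series' design text, replicates are retinas of separate mice, so p-values measure the spread between animals. No pair of replicates agreed within sampling noise.

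The members and gene lists were chosen with earlier results of these data known. Beside the members, the text names up to 3 genes of each list past the threshold by adjusted p over both ages, set markers and regulators, and the 5 genes nearest the mean profile; a few that qualified are not reported here. Alternatives were RLE scaling, no filter, at least 1 CPM in 3 libraries, DESeq2, only the libraries compared, the replicate number as a block, the RPE score as a covariate and leaving out each library. The scripts were tested on simulated data.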

Additional observations from a re-analysis of the deposited data

How the results depend on the processing

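With RLE size factors, at least 1 CPM in 3 libraries, DESeq2 or the replicate block, the number of melanogenesis genes called in each of the 6 comparisons stayed within 1.5 times that reported. With no filter on low counts, 6 genes were called at 8 weeks, 1 with age in JR5558 and 1 with age in C57BL/6J. That fit, over a wider set of genes, called 1290, 854 and 445 of all genes in these comparisons, against 949, 277 and 79 with the filter. With only the libraries compared, 4 were called at 8 weeks and 1 with age in JR5558, where 2183 and 544 of all genes were called. With the RPE score as covariate, 2 were called at 4 weeks and 3 over both ages, and 3 differences changed sign: Tyr to -0.52 at 8 weeks and -0.26 over both ages, and Slc45a2 to -0.34 at 4 weeks, none past the threshold in that fit; the cause was not tested.

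Leaving out 1 library at a time, 3 to 5 genes were called at 4 weeks, 1 to 3 at 8 weeks, 4 to 6 over both ages, 0 to 1 with age in JR5558, 0 to 0 with age in C57BL/6J and 0 to 0 for the difference between ages. Calls over all genes moved too, at 814 to 1162 at 4 weeks, 538 to 1373 at 8 weeks and 1491 to 2209 over both ages. The low end for the members at 8 weeks came without C57BL/6J replicate 2 of that age. That fit called 632 of all genes, against 949 with every library in. A group left with 2 libraries shares the spread of the others.

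The replicate numbers do not pair the animals: deviations of same-numbered libraries correlated at -0.114 to 0.0867 over 18 pairs. With the replicate block the calls numbered 4 at 4 weeks, 2 at 8 weeks, 5 over both ages, and 0 in each of the other 3 comparisons.

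Of 30 gene-level strain results, 30 kept their call with RLE and 30 with the block, 7 gained one without the filter, and 1, Oca2 at 8 weeks (adjusted p = 0.0495), gained one with DESeq2. With only the libraries compared, Tyr at 4 weeks lost its call (adjusted p = 0.0979). Gpr143 failed the filter of at least 1 CPM in 3 libraries. Counts over all genes moved more: over both ages 2050 genes were called, against 531 with the covariate. At 4 weeks 1130 were called, against 558 with only the libraries compared and 362 with the covariate. At 8 weeks 949 were called, against 2183 and 428. With age in JR5558, 277 were called, against 544 with only the libraries compared, 705 with DESeq2 and 854 with no filter. With age in C57BL/6J, 79 were called, against 22, 410 and 445. For the difference between ages, 17 were called, against 62 with DESeq2 and 96 with no filter. Depth limits Slc45a2 and Gpr143, with at most 29 and 23 counts in a library.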
